A study of Mus musculus with 2 samples.

Results

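The 45 genes described here encode the machinery of chromosomal DNA replication and the enzymes that supply its deoxynucleotides in mouse cells. They were chosen by name, not by measured level, but with earlier results of these data known. All 45 matched 1 gene each among the 55536 mouse genes of the GENCODE M21 gene table, 22028 of them protein-coding. The cells were G1E-ER4, an established mouse erythroid line labelled male, derived from cells without Gata1, in which GATA1 function returns through an estradiol-activated fusion protein. They had received 17beta-estradiol at 10 nM for 24 h, which starts erythroid maturation in this line. The series held 1 group of 2 libraries of polyadenylated RNA, biological replicates 1 and 2 in the labels, read in paired ends. Both libraries carry 1 biosample record with no word of separate cultures, and their differences may therefore be technical. This is 1 cultured line with no untreated or parental sample, so the values are levels in treated cells with no test between conditions and no p-value. In bulk RNA, fewer cells with a transcript and less of it per cell cannot be told apart.

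Replication starts where the origin recognition complex, with CDC6 and CDT1, loads the MCM helicase on DNA, while geminin binds CDT1 and stops reloading. CDC45 and GINS turn the loaded MCM ring into the moving helicase. DNA polymerase alpha with primase then lays primers that polymerases delta and epsilon extend, held by the PCNA clamp that RFC loads, while RPA coats the single strands and FEN1 and LIG1 join the Okazaki fragments. Ribonucleotide reductase, thymidylate synthase and thymidine kinase feed the deoxynucleotide pool. Many of these genes are known targets of E2F factors in cells that enter S phase, and maturing erythroid cells are known to divide a few more times before they leave the cycle.

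The total of the deposited expected counts was 71485620 for replicate 1 and 14121747 for replicate 2, and the 5.06-fold lower depth of replicate 2 makes its values less precise. The 45 genes held 0.429% of the counts in replicate 1 (95% Wilson interval 0.427% to 0.430%) and 0.244% in replicate 2 (0.241% to 0.246%). All intervals given here from counts cover counting error only. All 9 erythroid marker genes were detected, with Hbb-bs, an adult beta globin gene, the highest at 97719 and 34786 TPM in replicates 1 and 2. Gata1 was among the 9, at 2890 and 2661 TPM, and whether this level came from the introduced GATA1 fusion was not tested. Of 7 megakaryocyte markers 3 were detected, the highest being Gp1ba, a platelet glycoprotein gene, at 16.5 and 28.8 TPM, while Pf4 and Ppbp were at 0 in both libraries. No marker of granulocytes and monocytes, mast cells and basophils, lymphoid or stromal cells reached 1 TPM in both libraries, and their summed levels per list were 0 to 0.28 TPM in replicate 1 and 0 to 0.74 TPM in replicate 2. The highest of these were Cd14, at 0 and 0.16 TPM, Cd79a, at 0.21 and 0.55 TPM, and Col1a1, at 0.01 and 0.17 TPM.

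Transcripts of nearly the whole replication machinery were present. With detection set at 1 TPM in both libraries (an abundance per transcript length, scaled to a fixed library total), 39 of the 45 genes (86.7%) were detected, against 33.1% of all 22028 protein-coding genes. All 45 passed that level in replicate 1 and 39 in replicate 2. Those below it in replicate 2 were Orc3, Orc5, Orc6, Gmnn, Prim2 and Pold3. The 45 genes had a median level of 20.4 TPM (replicate 1) and 8.37 TPM (replicate 2), and over the 39 detected ones 31.8 and 11.4 TPM, against 20.2 and 15.2 TPM over the 7297 protein-coding genes detected in both. On the log2(TPM + 1) scale the median of the 45 was 4.42 in replicate 1 against 3.23 in replicate 2, averaging 3.82 ± 0.84 (SD, n = 2). The median gene of the 45 stood at percentile 83.4 of protein-coding genes in replicate 1 and 79.1 in replicate 2. At 10 TPM or more were 29 of the 45 genes in replicate 1 and 22 in replicate 2, and at 100 TPM or more 7 and 5. At the M21 gene level Mcm2 was the highest in both libraries. It alone made up 25.2% of the summed TPM of the 45 genes in replicate 1 and 38.3% in replicate 2. This rank was lost with an older annotation and with full coding transcripts alone, as given below for Mcm2.

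**Figure D1:**
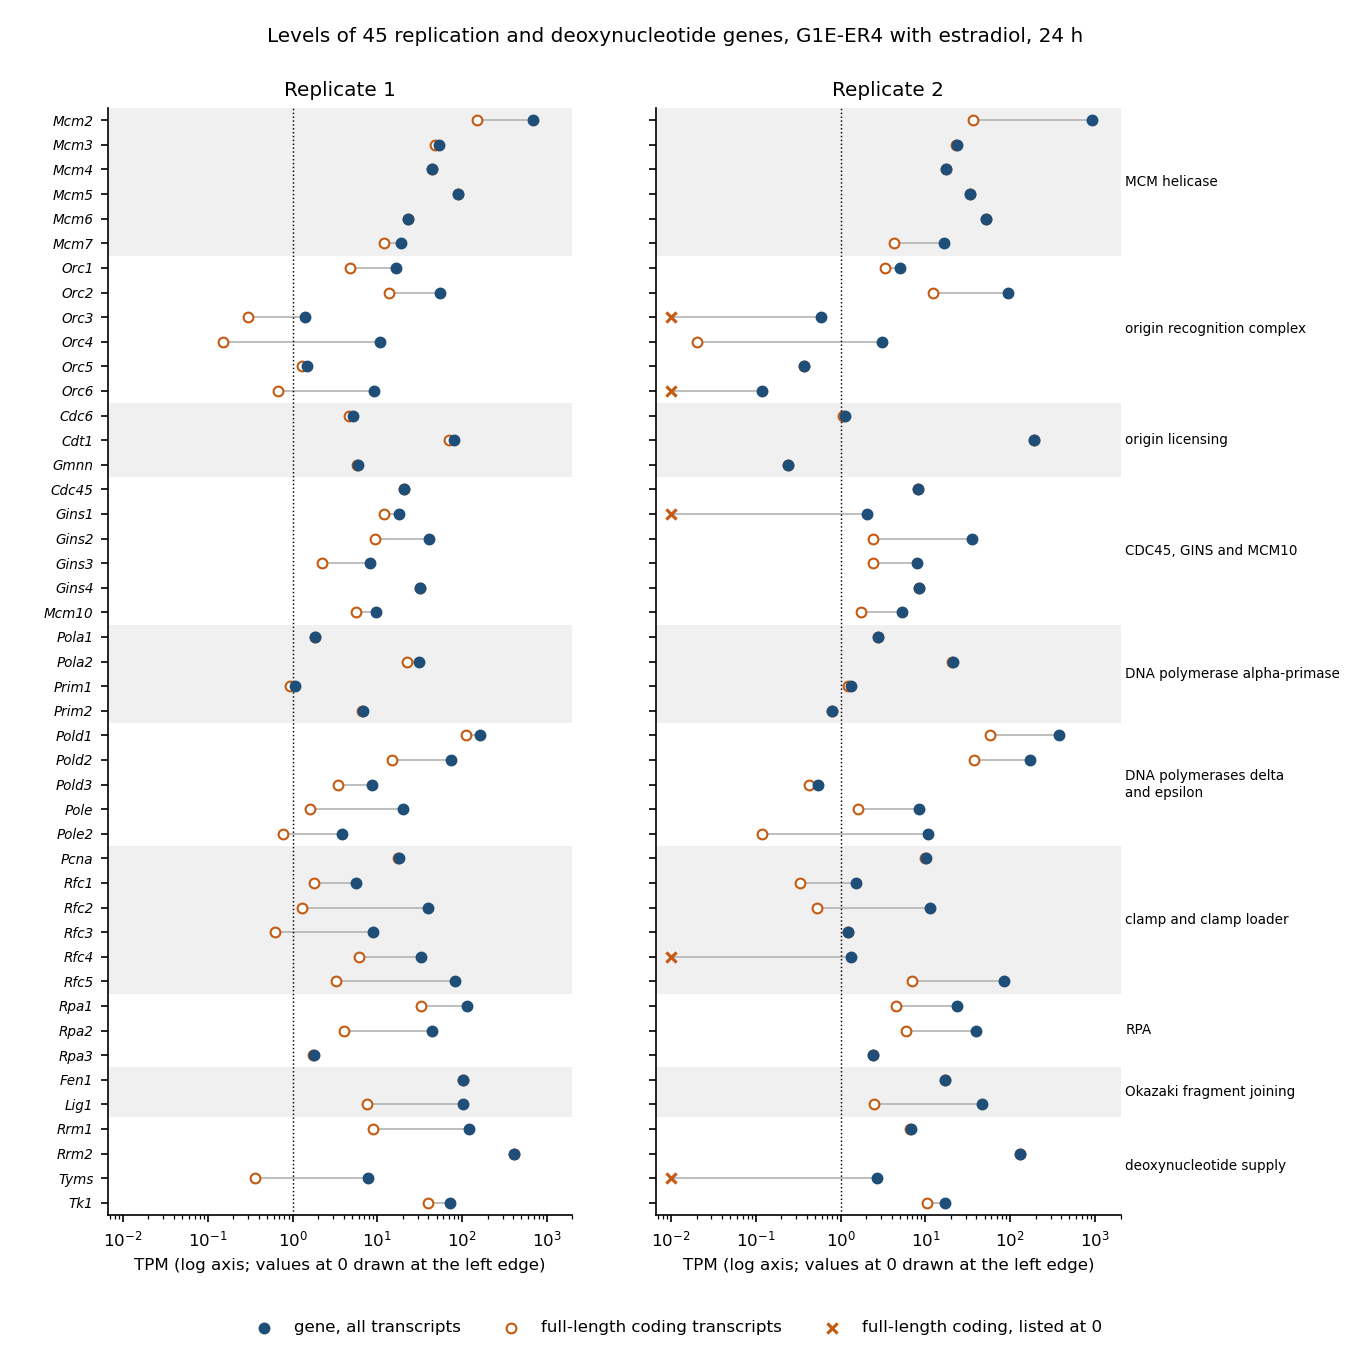
Level in TPM (log axis) of each of the 45 genes, grouped by role, in replicate 1 (left) and replicate 2 (right); filled points are the gene-level value over all transcripts, open points the sum over full-length coding transcripts, crosses a full-length sum listed at 0, and the dotted line the detection level of 1 TPM. A wide gap between the filled and the open point, as at Mcm2, Lig1 and Rfc2, shows a gene level assigned mainly to transcripts not classed as full-length coding.

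A gene-level TPM adds up all annotated transcripts of a gene, and for many of the 45 genes most of it was assigned to transcripts other than the full coding messenger. A transcript is called full-length coding here when it has a complete coding sequence of at least 90% of the gene's longest one. Such transcripts held under 50% of the TPM of 22 of the 45 genes (48.9%) in replicate 1 and of 22 in replicate 2. The same held for 45.3% and 50.1% of 7277 protein-coding genes detected in both libraries, so the share is near the background and is not a result about these genes. In 18 genes (background 39.1%) the full-length share was under 50% in both libraries, and in 14 (31.1%, background 27.8%) it was 90% or more in both, among them Mcm3, Mcm4, Mcm5, Mcm6, Cdc45, Pcna, Fen1 and Rrm2. Fen1 and Gins4, also among the 14, are annotated with full-length coding transcripts only, so the annotation fixed their share. The transcript with the highest TPM was a full-length coding one in 24 genes in replicate 1 and 23 in replicate 2, where the background was 56.9% and 50.8%. It was a retained-intron one in 8 and 7 genes, with a background of 12.1% and 14.9%, and it was the same transcript in both libraries for 32 genes (71.1%, background 66.5%). By full-length transcripts alone, 30 of the 45 genes reached 1 TPM in both libraries, against 24.4% of 21809 protein-coding genes that have such a transcript. In the transcript table made directly from reads, the full-length share was under 50% in 27 genes in replicate 1 and 25 in replicate 2, against 48.1% and 51.9% of protein-coding genes. It lay on the other side of 50% there for 10 genes in 1 or both libraries, lower for Mcm3, Cdt1, Mcm10, Pola2, Pold1, Pold3, Rfc3 and Rrm1 and higher for Mcm7 and Orc6, so the full-length values below hold for the main quantification. TPM divides by length, so a short transcript can hold most of a gene's TPM on a minority of its expected counts. The authors' quantification divides reads that fit several transcripts among them, and whether whole short transcripts or pieces of longer ones gave those reads was not tested.

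The retained-intron transcripts shown here each led a gene's TPM, and in the annotation they run on past a coding exon into the intron. No such junction was found for Gins2-204, Mcm10-209 and Pole2-204, which also led. Junctions found for Rfc1-205 and Rfc3-204 are not shown. Rfc1-205 led with 67.6% and 78.6% of the Rfc1 TPM in replicates 1 and 2, and Rfc3-204 with 51.1% of the Rfc3 TPM in replicate 1. The intron part can be small, 65 of 716 bases in Rpa1-205, and reads across these junctions were not examined. The junctions below are from GENCODE M21 transcripts on mm10, 20 exon bases in lower case and then 40 intron bases in capitals, and each intron opens with GT, the letters of a splice donor. They are shown because most of the TPM of Mcm2, Rfc2, Rpa1 and Rpa2 was assigned to these RNAs. The Mcm2-204 junction lies at chr6:88897247-88897306 on the minus strand, that of Rfc2-205 at chr5:134591200-134591259 on the plus strand, that of Rpa1-205 at chr11:75316065-75316124 on the minus strand, and those of Rpa2-202 and Rpa2-204 at chr4:132773882-132773941 and chr4:132771935-132771994 on the plus strand.
Mcm2-204: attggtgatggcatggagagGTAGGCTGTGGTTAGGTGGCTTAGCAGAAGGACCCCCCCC
Rfc2-205: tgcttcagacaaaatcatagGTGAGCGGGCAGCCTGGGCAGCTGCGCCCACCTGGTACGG
Rpa1-205: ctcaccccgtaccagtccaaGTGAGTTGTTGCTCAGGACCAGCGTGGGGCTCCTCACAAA
Rpa2-202: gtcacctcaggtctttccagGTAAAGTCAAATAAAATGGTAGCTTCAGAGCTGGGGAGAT
Rpa2-204: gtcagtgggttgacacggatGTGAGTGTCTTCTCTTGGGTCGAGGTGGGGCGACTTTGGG

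The 6 subunits of the MCM helicase ring were all detected. Mcm2 (ENSMUSG00000002870.8, chromosome 6 from 88883474 to 88898780) reached 681 TPM in replicate 1 and 927 in replicate 2, averaging 804 ± 174 TPM (SD, n = 2). Most of this was assigned to the retained-intron transcript Mcm2-204, 653 bases long with 390 of them in introns of the full-length transcript, which held 56.1% of the TPM in replicate 1 and 91.8% in replicate 2. The full-length Mcm2 messenger reached 148 (replicate 1) and 36.1 TPM (replicate 2). That was below full-length Rrm2, at 412 and 129 TPM in replicates 1 and 2. Full-length transcripts held 34483 of 51684 expected counts of Mcm2 in replicate 1 and 1443 of 7342 in replicate 2. In the older GENCODE M4 gene table Mcm2 was at 229 and 199 TPM in replicates 1 and 2.

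The other MCM subunits were carried mainly by their full-length messengers in the main quantification, except Mcm7 in replicate 2. In the table made from reads, full-length Mcm3 held 29.2% of its TPM in replicate 1, where the retained-intron transcript Mcm3-205 held 70.4%, and 97.3% in replicate 2. Mcm5 was at 90.3 and 33.6 TPM in replicates 1 and 2, Mcm3 at 52.7 and 23.4 TPM and Mcm4 at 44.4 and 17.4 TPM. All 3 were higher in replicate 1. Mcm6 went the other way, at 22.8 and 52.3 TPM. Mcm7, whose introns host the microRNA genes Mir25 and Mir93, was the lowest at 19.1 and 16.7 TPM, with 11.9 and 4.32 TPM in the full-length messenger. The highest MCM subunit exceeded the lowest 35.7-fold in replicate 1 and 55.7-fold in replicate 2 at the gene level, 5.48 ± 0.45 on the log2 scale (SD, n = 2). Between the full-length messengers alone this was 12.4-fold and 12.1-fold, and in the M4 table it was 3.53 on the log2 scale. Mcm7 was the lowest subunit in both libraries on both measures.

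The origin recognition complex, whose ORC1 to ORC6 subunits bind origins and recruit CDC6, had a lower median level than the ring it loads. Orc2 was at 55.2 and 94.3 TPM in replicates 1 and 2 and Orc1 at 16.5 and 5.07 TPM, with 4.71 and 3.32 TPM full-length. Orc4 was at 10.8 and 3.10 TPM and Orc3 and Orc5 stayed near the detection level, at 1.40 and 0.58 TPM and at 1.48 and 0.37 TPM. Orc6 was at 9.26 TPM on 504 counts in replicate 1 and at 0.12 TPM on 2 counts in replicate 2, and its CPM (expected counts scaled to the library total, with no correction for length) differed 49.8-fold with a 95% counting interval of 13.7 to 412. Only 3 of the 6 subunits, Orc1, Orc2 and Orc4, were detected in both libraries. In TPM, the levels of Orc1, Orc2, Orc3, Orc4 and Orc6 were assigned largely to short or noncoding transcripts in 1 or both libraries. Full-length transcripts held 3391 of 4050 expected counts of Orc2 in replicate 1 and 524 of 767 in replicate 2. For Orc1 they held 976 of 1423 and 118 of 130. For Orc3, Orc4 and Orc6 they held 47.1 of 156, 43.2 of 317 and 54.9 of 504 in replicate 1. The short coding transcript Orc2-205, 370 bases long, held 72.4% and 85.5% of the Orc2 TPM, and the full-length Orc2 messenger was at 13.7 and 12.4 TPM, close to equal in both libraries. Full-length Orc4 was at 0.15 and 0.02 TPM, and full-length Orc3 and Orc6 were at 0.30 and 0.67 TPM in replicate 1 and listed at 0 in replicate 2.

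The median of the MCM subunits exceeded that of the ORC subunits by 2.28 (replicate 1) and 3.95 (replicate 2) on the log2 TPM scale, a mean of 3.11 ± 1.19 (SD, n = 2). The sign was the same in the full-length messengers, the expected counts, the table made from reads and the M4 table. Among the full-length messengers the difference was 5.57 and 7.18.

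Of the licensing factors, CDT1, which brings MCM to the origin, stood far above its partners. Cdt1 (chromosome 8 from 122568015 to 122573554) was at 81.3 and 193 TPM in replicates 1 and 2, averaging 137 ± 78.9 (SD, n = 2), with 70.6 and 192 TPM in the full-length messenger. In the table made from reads the full-length messenger held 38.1% and 43.3% of the Cdt1 TPM, and the retained-intron transcript Cdt1-203 held 60.4% and 56.2%. Cdc6, the ATPase that acts with ORC, was at 5.15 and 1.12 TPM, with 4.69 and 1.07 TPM full-length. Gmnn, which encodes geminin, was at 5.85 TPM on 344 counts in replicate 1 and at 0.24 TPM on 3 counts in replicate 2. Cdt1 was higher in replicate 2 while Cdc6 and Gmnn were higher in replicate 1, so the balance of inhibitor and target differed between the libraries. Gmnn was below Cdt1 in both, with a log2 TPM difference of -3.80 (replicate 1) and -9.65 (replicate 2), a mean of -6.72 ± 4.14 (SD, n = 2). In CPM Gmnn was 22.7-fold higher in replicate 1 with a counting interval of 7.69 to 110.

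All 6 genes that turn the loaded ring into a helicase were detected. Cdc45 was at 20.4 and 8.28 TPM in replicates 1 and 2, nearly all of it full-length messenger. Gins4, with 1 annotated transcript, was at 31.8 and 8.30 TPM. Mcm10, which helps the activated helicase start, was at 9.54 and 5.35 TPM, of which 5.59 and 1.74 TPM were full-length. The other GINS subunits were less clear. Gins1 was at 17.96 and 2.03 TPM, but its full-length messenger was at 11.9 TPM in replicate 1 and listed at 0 in replicate 2, where the gene had 13 counts. Gins2 was at 40.7 and 35.8 TPM, with 9.27 and 2.40 TPM full-length, and 2758 of its 4097 exon bases overlap Gse1 on the opposite strand. Gse1 was at 160 and 229 TPM, and the sources used here do not say whether the authors counted by strand, so reads of Gse1 and Gins2 cannot be told apart there. Gins3 was at 8.30 and 8.01 TPM, with 2.20 and 2.39 TPM full-length, the closest agreement of the 4 GINS subunits.

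The polymerase alpha-primase complex, which lays the primers, was uneven. Pola2, its regulatory subunit, was at 30.7 and 21.1 TPM in replicates 1 and 2, far above the catalytic subunit Pola1 at 1.84 and 2.76 TPM. Of the primase subunits, Prim1 was at 1.06 and 1.34 TPM. Prim2 was at 6.80 TPM on 902 counts in replicate 1 and at 0.79 TPM on 18 counts in replicate 2. All 4 genes were carried mainly by full-length messengers in the main quantification, with 22.5 and 20.7 TPM for Pola2. In the table made from reads full-length transcripts held 42.8% and 30.2% of the Pola2 TPM. There the short coding transcript Pola2-203 led in replicate 1 with 51.9%, and the retained-intron transcript Pola2-211 in replicate 2 with 55.8%. Prim1 lay on 22 counts in replicate 2, and its CPM differed 1.11-fold with a counting interval of 0.704 to 1.84, which spans 1.

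Among the polymerases that extend the primers, the catalytic subunit of delta was higher than that of epsilon. Pold1, the catalytic subunit of delta (chromosome 7 from 44532746 to 44548849), was at 164 and 374 TPM in replicates 1 and 2, averaging 269 ± 148 (SD, n = 2). Its full-length messenger ran the other way, at 111 and 57.7 TPM, and the 581-base coding transcript Pold1-206 held 1.97% of the TPM in replicate 1 and 71.0% in replicate 2. Pold2, an accessory subunit of delta, was at 74.8 and 170 TPM, with 14.97 and 37.3 TPM full-length, and was higher in replicate 2 on both measures. Pold3, another accessory subunit, was at 8.54 TPM on 917 counts and at 0.54 TPM on 17 counts in replicates 1 and 2, with 3.40 and 0.42 TPM full-length. Pole, the catalytic subunit of epsilon, was at 20.2 and 8.37 TPM, but its full-length messenger was at 1.60 and 1.61 TPM, and the 747-base coding transcript Pole-203 held 70.6% and 65.6% of the TPM. Pole2, the accessory subunit of epsilon, was at 3.86 and 10.6 TPM, nearly all of it in replicate 2 the retained-intron transcript Pole2-204, with 0.77 and 0.12 TPM full-length.

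The clamp PCNA, widely used as a marker of dividing cells, was at a moderate level that rested on its messenger. Pcna was at 17.9 and 10.1 TPM in replicates 1 and 2, with 17.7 and 9.82 TPM full-length. Its processed pseudogene Pcna-ps2 was at 0.76 and 0 TPM, and Pcna-ps1 was at 0 in both libraries. Of the RFC clamp loader, Rfc5 was at 82.6 and 84.9 TPM, Rfc2 at 39.5 and 11.4 TPM and Rfc4 at 32.6 and 1.31 TPM. Rfc3 was at 8.83 and 1.23 TPM and Rfc1, the large subunit, at 5.55 and 1.54 TPM. The loader subunits were at 0.62 to 6.02 TPM in replicate 1 and 0 to 7 TPM in replicate 2 once only full-length messengers were summed, below Pcna in both libraries. Retained-intron transcripts held 96.8% and 95.3% of the Rfc2 TPM, and the nonsense-mediated decay transcript Rfc4-202 held 81.3% of the Rfc4 TPM in replicate 1 and 100% in replicate 2, on 6 counts. Rfc5-202, a 772-base coding transcript with 42.9% of its bases in the exons of the full-length one, held 80.0% and 89.5%, and Rfc5 shares 499 exon bases with Wsb2 on the opposite strand, a gene at 247 and 188 TPM.

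The RPA subunits, which coat single-stranded DNA, ranged widely. Rpa1 was at 114 and 23.8 TPM in replicates 1 and 2, Rpa2 at 44.3 and 39.8 TPM and Rpa3 at 1.81 and 2.40 TPM. The retained-intron transcript Rpa1-205 held 70.6% and 78.4% of the Rpa1 TPM, leaving 32.8 and 4.49 TPM full-length. For Rpa2 the gene total was close in both libraries, but the leading transcript was not the same. Rpa2-202 held 83.6% of the TPM in replicate 1 and 10.6% in replicate 2, while Rpa2-204 held 7.24% and 74.7%. Full-length Rpa2 was at 4.03 and 5.86 TPM, and full-length Rpa3 at 1.73 and 2.40 TPM.

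The 2 enzymes that finish Okazaki fragments had like gene totals in replicate 1. Fen1, the flap endonuclease, was at 103 and 17.1 TPM in replicates 1 and 2. All 4 of its annotated transcripts are full-length coding, so its full-length share was fixed by the annotation and cannot be set against that of Lig1. Of its 2422 exon bases 1909 overlap the antisense gene Gm10143 on the opposite strand, at 0.10 and 0 TPM, and without a stated strand rule reads of that pair cannot be told apart. Lig1, the replicative ligase, was at 102 and 46.8 TPM, with 7.49 and 2.49 TPM full-length. Most of the rest at Lig1 was assigned to the processed transcript Lig1-207, which held 78.1% and 94.7% of the TPM. It is 2968 bases long with 99.6% of them in exons of the full-length transcript, so the annotation calls it noncoding although almost all of its sequence is shared with the messenger.

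Ribonucleotide reductase makes deoxynucleotides out of ribonucleotides and needs both of its subunits. Rrm2, the small subunit (chromosome 12 from 24708241 to 24714146), was at 413 and 131 TPM in replicates 1 and 2, averaging 272 ± 199 (SD, n = 2), nearly all full-length. Rrm1, the large subunit (chromosome 7 from 102441695 to 102469771), was at 122 and 6.69 TPM, averaging 64.1 ± 81.2 (SD, n = 2). The full-length Rrm1 messenger was at 8.96 and 6.58 TPM, almost level in both libraries. In replicate 1 the nonsense-mediated decay transcript Rrm1-202 held 92.1% of the TPM, against 1.64% in replicate 2. It is 747 bases long with 98.1% of them in exons of the full-length transcript. The authors' effective length of the gene was 837 bases in replicate 1 and 3812 in replicate 2, so equal counts gave a higher TPM in replicate 1. The CPM of Rrm1 differed 4.63-fold (counting interval 4.13 to 5.20) where TPM differed 18.2-fold. Rrm1 was below Rrm2 in both libraries, with a log2 TPM difference of -1.77 (replicate 1) and -4.30 (replicate 2), a mean of -3.03 ± 1.79 (SD, n = 2), and in the full-length messengers the difference was -5.52 and -4.30. In the table made from reads it was -1.66 and -1.03, with full-length transcripts holding 9.19% and 26.9% of the Rrm1 TPM.

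Of the thymidine enzymes, Tk1, thymidine kinase of dividing cells, was at 72.3 and 16.9 TPM in replicates 1 and 2, with 39.6 and 10.5 TPM full-length. Tyms, thymidylate synthase, was at 7.84 TPM on 313 counts in replicate 1 and 2.71 TPM on 16 counts in replicate 2. Its full-length messenger was at 0.36 TPM in replicate 1 and listed at 0 in replicate 2, and its pseudogene Tyms-ps was at 0 in both. Tk1, an enzyme of salvage, was above Tyms, the enzyme of new synthesis, in both libraries and on both measures.

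**Figure D2:**
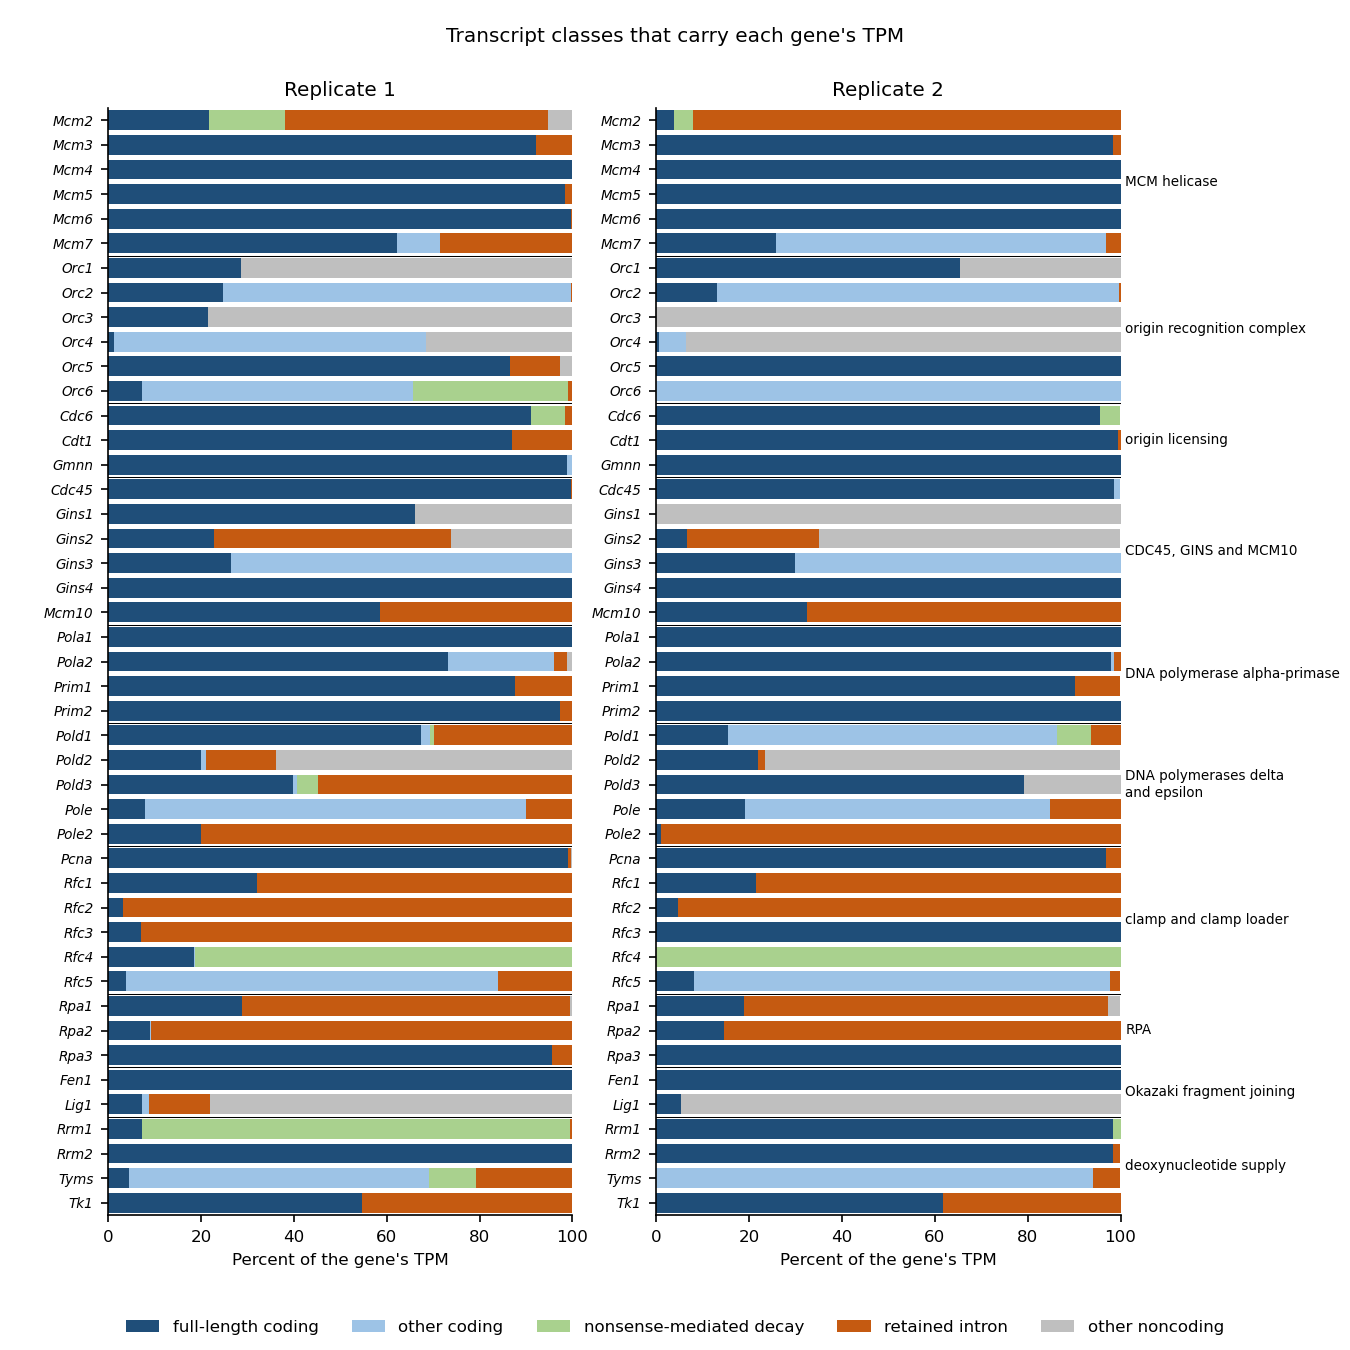
Percent of each gene's TPM in 5 annotated transcript classes, in replicate 1 (left) and replicate 2 (right), with genes grouped by role. Genes such as Mcm4 and Rrm2 are full-length coding throughout, Rfc2 and Rpa2 are mainly retained-intron in both libraries, and Rrm1 is mainly nonsense-mediated decay in replicate 1 and full-length in replicate 2.

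Most of the 45 genes were higher in replicate 1 than in replicate 2. Over the 44 with a mean expected count of 50 or more (Rpa3 had fewer), 32 (72.7%) were over 2-fold apart in TPM, against 50.4% of 8546 protein-coding genes past the same filter. Of these, 27 (61.4%, background 35.2%) were higher in replicate 1 and 5 (11.4%, background 15.2%) in replicate 2. Those 5 were Mcm6, Cdt1, Pold1, Pold2 and Pole2. The median log2 ratio of replicate 1 over replicate 2 was 1.33 for the 44 genes, against 0.42 for all protein-coding genes, a difference of 0.91. Such a difference between 1 library and 1 other has no replicate check. Over 8-fold higher in replicate 1 were Orc6, Gmnn, Gins1, Prim2, Pold3, Rfc4 and Rrm1, all but Rrm1 on at most 18 counts in replicate 2. These 7 were 15.9% of the 44, against 7.86% of protein-coding genes. In all, 13 of the 45 genes had fewer than 50 counts in replicate 2 and none had in replicate 1.

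**Figure D3:**
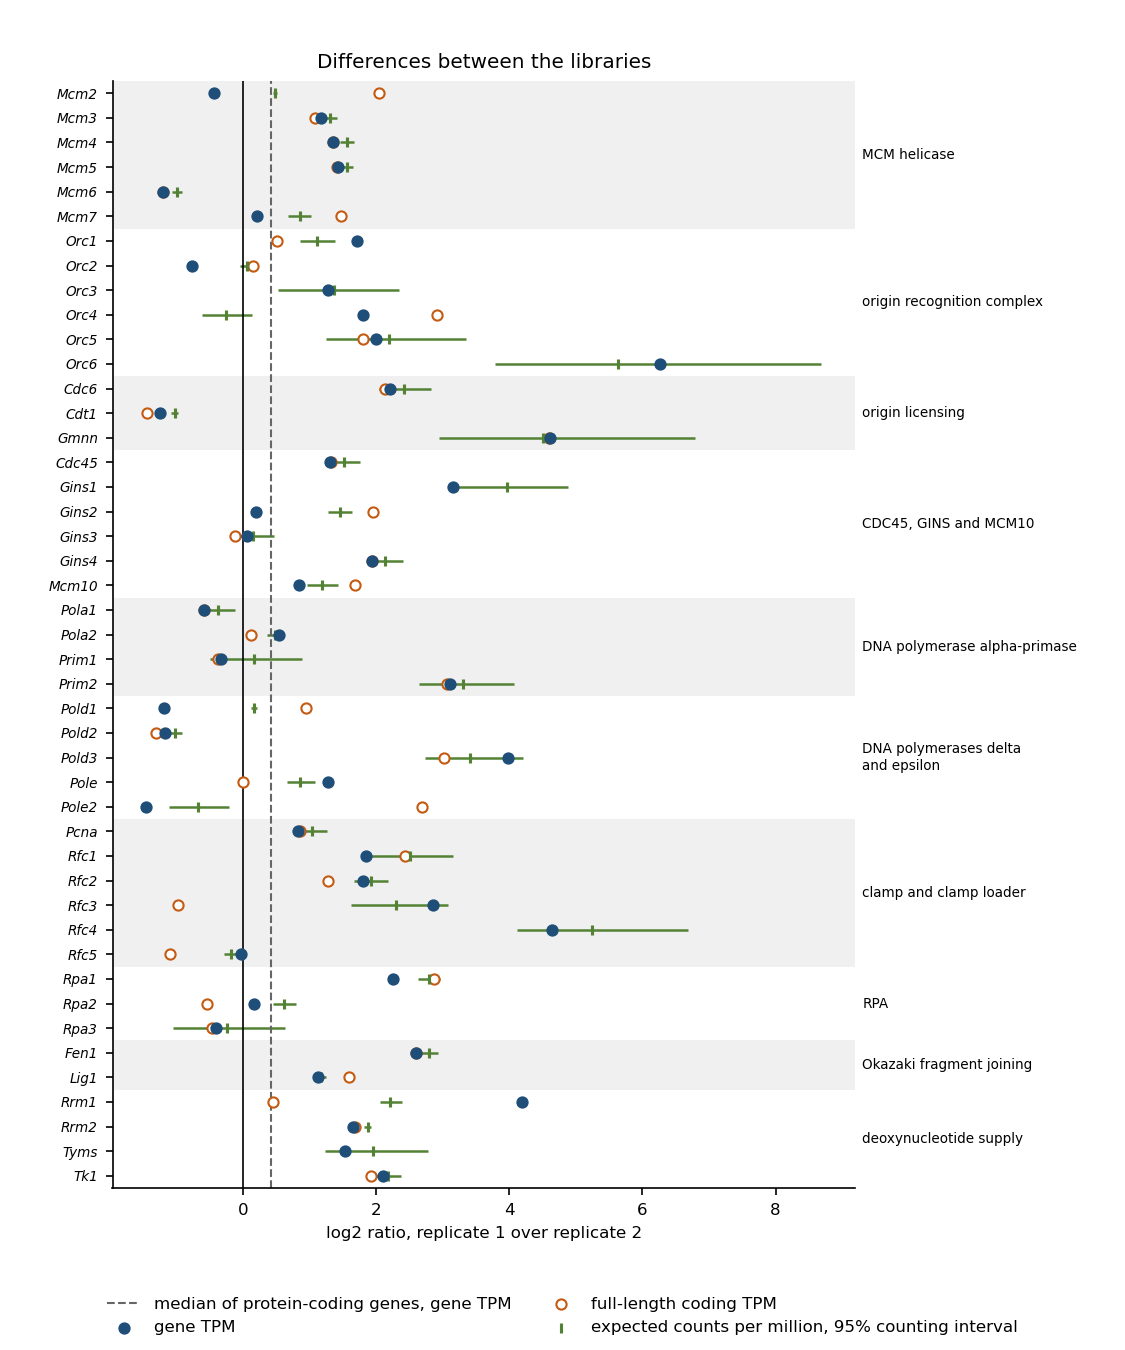
log2 ratio of replicate 1 over replicate 2 for each of the 45 genes, by gene TPM (filled), full-length coding TPM (open; not drawn where it is listed at 0 in replicate 2) and CPM of expected counts (tick, with its 95% counting interval). Most points lie right of the dashed protein-coding median of 0.42; Mcm2, Pold1 and Pole2 change side between gene and full-length TPM.

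How far a gene differed depended on which of its transcripts were counted. By full-length messengers, 27 of 38 genes past the filter (71.1%) were over 2-fold apart, against 56.9% of 7734 protein-coding genes, 23 (60.5%) were higher in replicate 1, against 45.9%, and 4 in replicate 2, against 11.1%. The median log2 ratio was 1.38 against 0.84. Of 40 genes with a full-length value above 0 in both libraries, 8 changed direction between gene and full-length TPM, namely Mcm2, Orc2, Gins3, Pold1, Pole, Pole2, Rfc3 and Rpa2. These were 20.5% of the 39 past the count filter, near the 20.7% of protein-coding genes. The authors' effective length, which the mix of transcripts sets, differed over 1.5-fold between the libraries in 12 genes, 27.3% of the 44 against 20.4% of protein-coding genes. CPM values, which do not use that length, were higher in replicate 1 for 34 genes by an interval that left out 1, lower for Mcm6, Cdt1, Pola1, Pold2, Pole2 and Rfc5, and not separable from equal for Orc2, Orc4, Gins3, Prim1 and Rpa3. Among the 44 genes past the count filter the higher ones were 77.3%, against 62.9% of protein-coding genes, and the lower ones 13.6%, against 25.4%. For Mcm2 and Pold1 that interval lay above 1 although their TPM was higher in replicate 2. With the transcript table made directly from reads and summed per gene, 40 of the 45 genes (88.9%) were over 2-fold higher in replicate 1 and none in replicate 2, against 75.3% and 2.29% of protein-coding genes. After rescaling of that table over nuclear protein-coding genes, 14 (31.1%) were higher in replicate 1 and 2 (4.44%) in replicate 2, against 21% and 16.1%. The share over 2-fold apart in either direction, 35.6%, was then no longer above the 37.2% of protein-coding genes.

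GC content moved with the ratio between libraries. The median log2 ratio of protein-coding genes ran from 0.79 in the bin of lowest GC (median GC 39.4%) to -0.71 in the bin of highest GC (61.3%). Across genes, which are not independent replicates and share both libraries, Spearman's rho of GC and the ratio was -0.25 over 44 of the genes described here and -0.21 over 8409 protein-coding genes. Of the 5 genes over 2-fold higher in replicate 2, Pold1, Pold2 and Cdt1 were at 60.7%, 58.7% and 58.8% GC, while Mcm6 and Pole2 were at 49.1% and 44.7%. With the GC trend of protein-coding genes taken out, 19 genes (43.2%, background 25.2%) were over 2-fold higher in replicate 1 and 6 (13.6%, background 23.2%) in replicate 2, and the median log2 ratio was 0.74, against 0.01 for protein-coding genes. The part of GC in the differences beyond this was not tested.

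**Figure D4:**
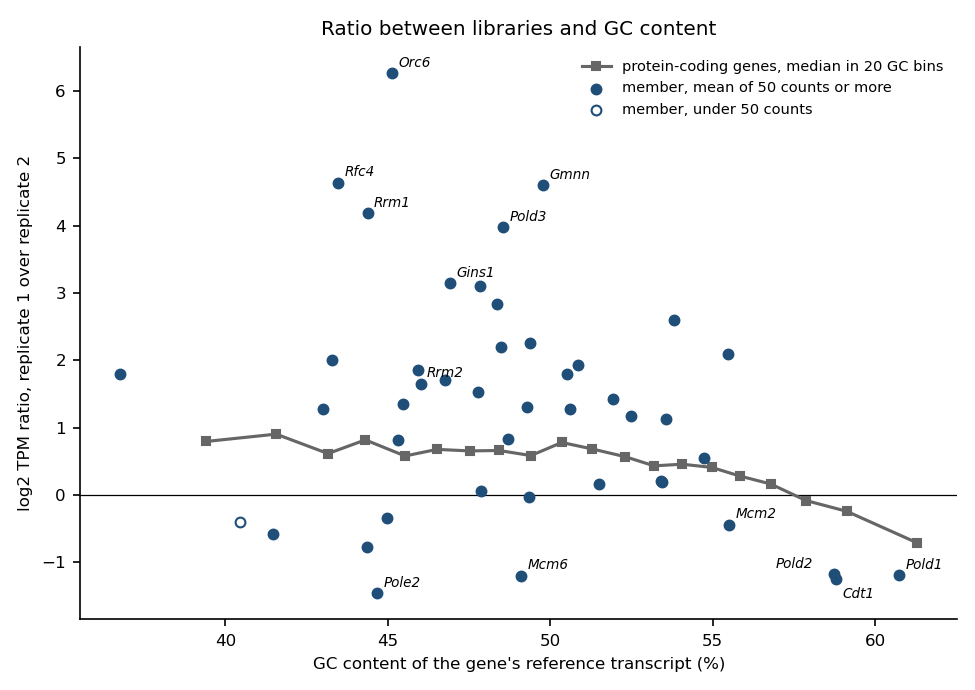
log2 TPM ratio of replicate 1 over replicate 2 against the GC content of each gene's full-length reference transcript; circles are the 45 genes and squares joined by a line are medians of protein-coding genes in 20 GC bins. The line falls from 0.79 to -0.71, and most of the genes described here lie above it.

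The genes kept a similar order in both libraries. Spearman's rho of TPM between replicates, across genes, was 0.82 over the 45 genes and 0.81 over 7297 detected protein-coding genes. Within 1 library, rho over the 45 genes was 0.97 in replicate 1 and 0.98 in replicate 2 between the M21 and M4 tables, and 0.98 and 0.91 between the M21 table and the one made from reads. Between gene and full-length TPM it was 0.76 and 0.82. These points share libraries and reads, and the coefficients are descriptions.

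Promoter sequences were at hand for 37 of the 45 genes in the RefSeq table for GRCm38.p6, each with 250 bases before and 50 after the annotated start. Mcm4, Gmnn, Gins1, Gins2, Gins4, Prim2, Pole and Rfc2 had no entry. The E2F-type letters TTTCGCGC or TTTGGCGC, on either strand, occurred in 10 of the 37 (27.0%), against 1.22% of 16522 protein-coding genes with an entry. The 10 were Mcm3, Mcm5, Mcm6, Mcm7, Orc1, Cdt1, Pola1, Pole2, Rfc3 and Lig1. With the forms TTTCCCGC and TTTGCCGC added, 15 of the 37 (40.5%) held a match, against 3.32% of protein-coding genes. Of the other motifs searched on both strands, CCAAT occurred in 23 (62.2%, against 42.1%) and the GC box GGGCGG in 28 (75.7%, against 51.0%). The GATA letters AGATAA or TGATAA occurred in 4 (10.8%, against 17.7%), and TTTGAA or TTCGAA, a form of the cell cycle element CHR, in 7 (18.9%, against 19.4%). A match of letters is a description of the sequence and not a binding site, and no match says only that these letters are not in the window.

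In Mcm5, Mcm6, Orc1, Pola1 and Rfc3 the E2F-type letters lie before the start, and these stretches are shown because the letters are rare among all promoters. The letters are in capitals, with up to 20 bases on each side cut at the start, from RefSeq on GRCm38.p6, read on the gene's strand. The matches begin 153 bases before the start of Mcm5 (chr8:75109336-75109383, plus strand), 110 and 47 before that of Mcm6 (chr1:128359788-128359835 and chr1:128359725-128359772, minus strand), 27 before that of Orc1 (chr4:108579407-108579453, plus strand), 138 before that of Pola1 (chrX:93632266-93632313, minus strand) and 10 before that of Rfc3 (chr5:151651209-151651238, minus strand). In the remaining genes with a match the letters lie in the 50 bases after the start. In Mcm5 and in the first stretch of Mcm6 the second form overlaps the first on the other strand.
Mcm5: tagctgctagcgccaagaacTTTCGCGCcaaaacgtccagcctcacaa
Mcm6 first: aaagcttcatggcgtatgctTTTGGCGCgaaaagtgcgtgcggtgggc
Mcm6 second: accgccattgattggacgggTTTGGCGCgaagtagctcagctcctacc
Orc1: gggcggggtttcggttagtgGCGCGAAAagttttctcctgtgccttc
Pola1: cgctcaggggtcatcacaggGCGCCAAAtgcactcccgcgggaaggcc
Rfc3: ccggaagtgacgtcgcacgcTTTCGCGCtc

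The genes with these letters and those without overlapped in level. The 10 genes with E2F-type letters had a median of 20.9 (replicate 1) and 20.01 TPM (replicate 2), against 20.4 and 8.01 TPM for the 27 without. Their full-length medians were 9.70 and 3.82 TPM in replicates 1 and 2, against 5.59 and 4.49 TPM without the letters. The order of the medians thus changed with the measure in replicate 2, and no test was made.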

How the data were processed

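The members and gene lists were chosen with earlier results of these data known. Per the labels and file descriptions, reads were placed on mm10; the sources used here name neither the aligner nor the quantifiers. The expected counts, as deposited, are estimates of fragments for each gene or transcript without normalization. Per the file headers, TPM values come as maximum likelihood and posterior mean estimates, each column scaled to a fixed total. The authors' deposited bounds of an interval of that signal and the deposited effective length in bases were used only to describe. The main values are from the gene table of M21, and symbols came from the transcript table made from reads. Each gene's coordinates and each transcript's class are from GENCODE M21. GC content is that of the full-length coding transcript with the longest coding sequence. CPM values use all expected counts, and their ratio has an exact binomial interval at 95%, with expected counts rounded. Genes past a mean of 50 counts entered the ratios, which have no pseudocount. The code that calls 2-fold differences was tested on simulated data before use. All 45 members are named; of 55 other genes of replication (56 listed, 1 left out because its name has 2 gene entries), the 2 highest of each list and every one not detected are named, and the highest of each marker list. Alternatives were other annotation, tables, thresholds and scalings, edgeR TMM and DESeq2 size factors on rounded counts, and each replicate alone. Software was edgeR 4.0.16 and DESeq2 1.42.0 in R 4.3.3, and scipy 1.17.1, pandas 2.3.3, numpy 2.4.6 and matplotlib 3.10.9 in Python 3.11.15.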

Additional observations from a re-analysis of the deposited data

How the results depend on the processing

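No paired analysis was possible because the series holds 1 group. No summary value given in this paragraph changed sign under any alternative. The median log2 ratio between replicates, 1.33 as reported, was 2.08 with the table made from reads, 1.41 with CPM, 1.25 with the M4 table, 1.22 with posterior means, 1.22 with a mean of 500 counts or more, 1.18 with no count filter and TPM + 1, 1.05 with edgeR TMM, 0.97 with DESeq2 size factors and 0.91 with the protein-coding median set to 0. Under alternatives chosen after seeing the data it was 1.38 with full-length transcripts, 0.74 with the GC trend taken out and 0.45 with the table made from reads rescaled. It stayed above that of protein-coding genes in all of these, by 0.34 to 1.18. The count of genes over 2-fold apart, 32 (72.7%, background 50.4%), was 21 of 30 with a mean of 500 counts or more (70.0%, background 47.9%) and 19 at 3-fold (43.2%, background 30.4%). With the rescaled table made from reads it was 16 of 45 (35.6%), below the background of 37.2%. In the others it was between 25 and 40, above the background of each. The median level, 3.82 on the log2 scale, was 2.42 with full-length transcripts. The MCM over ORC difference, 3.11, was 6.37 with full-length transcripts and 4.65 in expected counts, which do not correct for length. The spread of the MCM subunits, 5.48, was 3.62 with full-length transcripts, 3.53 with the M4 table and 4.42 in expected counts. The Rrm1 to Rrm2 difference, -3.03, was -4.91 with full-length transcripts, -4.14 with the M4 table and -1.34 with the table made from reads. The order of the replicates turned both with full-length transcripts and with the table made from reads. The number detected ran from 28 at 5 TPM to 42 at 0.5 TPM, and was 30 with full-length transcripts. With replicate 1 alone the number detected was 45, and the leading transcript's median share, 83.0% as the mean of both, was 72.5%. With replicate 2 alone these values were 39 and 93.6%. Where replicate 2 has under 50 counts, depth limits every ratio.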

Other observations

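Other genes of replication that are not among the 45 were also largely present. Of 55 such genes 47 were detected in both libraries, against 33.1% of all protein-coding genes. Of 52 with a mean of 50 counts or more, 19 were over 2-fold higher in replicate 1 and 4 in replicate 2. Among protein-coding genes past the same filter these shares were 35.2% and 15.2%. The share higher in replicate 1 was near that background and is not a result about these genes. The highest were the ribonuclease H2 subunits Rnaseh2a, which removes ribonucleotides from DNA, at 1184 and 2035 TPM in replicates 1 and 2, and Rnaseh2c at 574 and 485 TPM. Full-length Rnaseh2a was at 7.74 and 4.52 TPM and full-length Rnaseh2c at 277 and 434 TPM. Among origin firing factors, Ccne1, cyclin E1, was at 146 and 368 TPM and Donson at 24.2 and 130 TPM, both higher in replicate 2 at the gene level. Full-length Ccne1 was at 45.1 and 57.2 TPM, while full-length Donson was at 1.35 TPM in replicate 1 and listed at 0 in replicate 2. The histone chaperone genes Asf1b and Chaf1a, which place histones behind the fork, reached 230 and 37.7 TPM for Asf1b and 87.4 and 11.1 TPM for Chaf1a. Their full-length messengers were at 14.1 and 13.04 TPM for Asf1b, close to equal, and at 22.8 and 8.62 TPM for Chaf1a. Chtf18, of an alternative clamp loader, was at 63.4 and 19.0 TPM, with 29.8 and 6.58 TPM full-length, and Mcm3ap at 28.0 and 16.2 TPM, with 16.1 and 14.9 TPM full-length.

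Of 9 genes of the fork and the replication checkpoint 5 were detected in both libraries, and the median level of the 9 was 4.81 TPM in replicate 1 and 1.02 TPM in replicate 2. Timeless, of the fork protection complex, was at 19.9 and 5.42 TPM, with 8.75 and 4.86 TPM full-length, and Rad17, which loads the checkpoint clamp, at 12.5 and 9.45 TPM, all full-length. Tipin, the partner of Timeless, was at 0.90 and 0.73 TPM, the checkpoint kinases Atr and Chek1 at 2.63 and 0.36 TPM and at 0.46 and 0.09 TPM, and Hus1 at 4.94 and 0.90 TPM. The full-length messengers of these 4 were at 0.69 TPM or less in both libraries. Of the remaining nucleotide genes, Shmt2, a mitochondrial source of one-carbon units, was at 303 and 136 TPM, with 219 and 72.9 TPM full-length. Nme1, a nucleoside diphosphate kinase, was at 83.5 and 104 TPM, but only 2.02 and 0.49 TPM of it was full-length. Dctd was at 0.09 and 0 TPM, Rrm2b, the other small subunit of ribonucleotide reductase, at 1.52 and 0.02 TPM, and Shmt1 at 1.57 and 0.37 TPM.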
